A study of Arabidopsis thaliana with 29 samples.

Results

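The genes described are 42 nuclear genes of Arabidopsis thaliana that encode the light-harvesting proteins and the nucleus-encoded subunits of photosystem I and photosystem II. They were taken by locus identifier from a fixed list, and their rows were found by symbol, synonym or locus identifier in each of 7 tables of 32650 entries. All 42 genes were found, in 44 entries, because LHCB1.1 and LHCB1.2 have 2 entries each. They fall into 6 roles. The major antenna of photosystem II has 9 genes (LHCB1.1 to LHCB1.5, LHCB2.1 to LHCB2.3 and LHCB3), its minor antenna 5 (LHCB4.1 to LHCB4.3, LHCB5 and LHCB6) and the photosystem I antenna 6 (LHCA1 to LHCA6). There are 12 photosystem I core subunits (PSAD to PSAO), 6 subunits of the oxygen-evolving complex (PSBO, PSBP, PSBQ and PSBR genes) and 4 other photosystem II subunits (PSBS, PSBW, PSBX and PSBY).

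Light-harvesting proteins bind chlorophyll and carotenoids in the thylakoid membrane and pass absorbed energy to the reaction centres. LHCB proteins serve mainly photosystem II, which splits water, and LHCA proteins serve photosystem I, which reduces ferredoxin. The reaction centre proteins are encoded in the chloroplast and are not considered here, whereas the genes described here are transcribed in the nucleus, and their proteins are imported. Their transcripts are among the most abundant in a leaf, respond to light and chloroplast state, and many of them cycle with the circadian clock, peaking in the day.

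RNA of all leaves of 4 to 6 plants per library was sequenced, in 29 libraries of 12 groups, of which 27 libraries of 10 groups enter 7 comparisons. All plants were of the Columbia ecotype. Dex-GDU1 is a homozygous line with the 6Op-LHGRn system for dexamethasone-inducible expression of GDU1, a member of the GLUTAMINE DUMPER (GDU) family of small plant membrane proteins whose over-expression raises amino acid export, and 4c-S7 is its parental line. Plants of both lines received a spray of 100 µM dexamethasone with 300 ppm Silwet L-77 at 5 h after dawn and a humidity dome for 7 h. They were sampled 7 h later (3 Dex-GDU1 and 4 4c-S7 libraries) and 25 h later (3 and 4 libraries). No sprayed line is compared with unsprayed plants of the same line, so lasting differences between the lines cannot be told apart from induction. The unsprayed lines were gdu1-1D (3 libraries), a mutant labelled constitutive for GDU1, and 4 lines with 2 libraries each, 35S-GDU2, 35S-GDU4, 35S-GDU5 plus 35S-GDU6, homozygous in the Col background and driven by the CaMV 35S promoter, which is active in most plant tissues. The titles carry 1 line code for each of these, and all 5 were set against the same 2 libraries of Col wild type. All plants had 16 h of light and 8 h of dark at 22 °C for 23 days.

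Values are FPKM, fragment counts scaled to transcript length and to the number of mapped fragments, and the authors' deposited tables give 1 FPKM value per gene and group. There is therefore no spread between libraries to print, and the depth per library is unknown. A gene was called where the authors' Cuffdiff test was made and its q-value, the p-value adjusted over all genes of the table, was below 0.05. Log2 fold changes were computed here, with the line's FPKM divided by that of its control. Standard errors (SE) were recomputed from the p-values and are upper bounds where p has its smallest value of 5e-05. The libraries are numbered as biological replicates without further detail, so the p-values measure the spread between libraries, or between the 2 sequencing runs of each, and part of it may be technical.

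Promoters are shown for 5 genes on which the results turn: the 3 LHCB2 genes and LHCB1.4, all among the larger increases in Dex-GDU1 at 7 h, and LHCB4.3, the gene called lower in the most comparisons. Each is the 250 bases before the annotated start in the RefSeq annotation of TAIR10.1, read 5′ to 3′ on the gene's strand, with matches to 5 motifs in capitals. The motifs, searched on both strands, are the G-box (CACGTG), the I-box core (GATAAG), the CCA1-binding site (AAAAATCT or AACAATCT), the evening element (AAATATCT) and a GLK-type site (CCAATC). CCA1 is a clock factor active in the morning, and GLK factors are activators of antenna and chlorophyll synthesis genes.
LHCB2.1 promoter, chr2:1824481-1824730, minus strand: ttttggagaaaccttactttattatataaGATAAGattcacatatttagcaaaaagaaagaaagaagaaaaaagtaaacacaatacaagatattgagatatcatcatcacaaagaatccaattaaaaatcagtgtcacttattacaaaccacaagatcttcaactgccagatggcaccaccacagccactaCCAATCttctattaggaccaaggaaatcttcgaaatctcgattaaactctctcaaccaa
LHCB2.2 promoter, chr2:1800473-1800722, minus strand: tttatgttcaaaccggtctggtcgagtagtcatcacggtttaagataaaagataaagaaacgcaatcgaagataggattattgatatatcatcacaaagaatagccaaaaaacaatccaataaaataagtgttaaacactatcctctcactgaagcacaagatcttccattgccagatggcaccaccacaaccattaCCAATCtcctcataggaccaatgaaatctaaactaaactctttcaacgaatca
LHCB2.3 promoter, chr3:10255656-10255905, plus strand: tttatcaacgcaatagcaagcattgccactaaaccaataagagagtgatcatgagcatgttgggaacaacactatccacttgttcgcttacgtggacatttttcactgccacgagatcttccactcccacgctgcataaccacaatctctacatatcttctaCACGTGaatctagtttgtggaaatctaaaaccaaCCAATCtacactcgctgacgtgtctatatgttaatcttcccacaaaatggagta
LHCB1.4 promoter, chr2:14524357-14524606, plus strand: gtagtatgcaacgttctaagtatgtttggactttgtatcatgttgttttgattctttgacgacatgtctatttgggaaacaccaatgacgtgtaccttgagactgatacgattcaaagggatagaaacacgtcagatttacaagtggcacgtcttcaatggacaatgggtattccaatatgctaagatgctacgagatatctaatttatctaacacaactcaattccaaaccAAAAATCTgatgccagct
LHCB4.3 promoter, chr2:16745378-16745627, plus strand: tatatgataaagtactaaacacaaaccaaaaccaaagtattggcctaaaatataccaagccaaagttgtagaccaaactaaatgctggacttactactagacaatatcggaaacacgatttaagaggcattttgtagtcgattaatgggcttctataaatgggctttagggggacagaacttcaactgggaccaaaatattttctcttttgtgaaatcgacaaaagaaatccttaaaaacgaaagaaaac

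All 3 LHCB2 promoters hold CCAATC, at 54, 48 and 49 bases before the start in LHCB2.1, LHCB2.2 and LHCB2.3. LHCB2.3 also holds a G-box at 83 bases, LHCB2.1 an I-box core at 216 bases, and LHCB1.4 a CCA1-binding site at 11 bases. LHCB1.4 holds no CCAATC. Neither does LHCB1.1, not shown, which was also among the larger increases at 7 h and holds a CCA1-binding site at 71 bases. The LHCB4.3 window holds none of the 5 motifs. Over the 42 members, CCAATC was present in 11 (26.2%), against 10.2% of 27443 promoters of the same length. The G-box was present in 8 members (19.0%) against 6.49% of all promoters, the I-box core in 9 (21.4%) against 12.3%, the CCA1-binding site in 6 (14.3%) against 8.38%, and the evening element in 1, LHCA5 (2.38%), against 4.79%. A match is a description of letters in this window and not evidence of binding.

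The LHCB1 genes also have to be read with their sequence in view, because near-identical copies can share reads. The coding sequences of LHCB1.3, LHCB1.1 and LHCB1.2 are each 804 bases long and 95.6% to 96.4% identical, and the longest run that LHCB1.3 and LHCB1.1 share is 119 bases, longer than a read of 100 bases. That run is shown with the same stretch of LHCB1.2, where capitals mark the 6 bases that differ from LHCB1.3.
LHCB1.3 coding stretch, chr1:10478473-10478591, plus strand: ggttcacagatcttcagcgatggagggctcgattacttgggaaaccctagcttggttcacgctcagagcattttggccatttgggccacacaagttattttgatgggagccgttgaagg
LHCB1.1 coding stretch, chr1:10475372-10475490, minus strand: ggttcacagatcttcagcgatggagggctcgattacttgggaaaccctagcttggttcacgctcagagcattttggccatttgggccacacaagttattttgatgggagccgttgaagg
LHCB1.2 coding stretch, chr1:10472726-10472844, minus strand: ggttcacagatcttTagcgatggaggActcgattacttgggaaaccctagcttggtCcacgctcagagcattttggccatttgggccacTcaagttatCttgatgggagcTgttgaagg

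LHCB1.4 and LHCB1.5 are 91.8% identical and share a run of 122 bases, and LHCB2.1 and LHCB2.2 are 96.6% identical and share a run of 152 bases. How reads common to such copies were assigned is not given in the sources used here, so the split among LHCB1.1, LHCB1.2 and LHCB1.3, between LHCB1.4 and LHCB1.5, and between LHCB2.1 and LHCB2.2 is uncertain. LHCB4.3 differs clearly from its relatives, with 65.9% identity to LHCB4.1 and no identical run above 21 bases. Among the other pairs, PSAD1 and PSAD2, PSAE1 and PSAE2, PSAH1 and PSAH2, PSBO1 and PSBO2, and PSBQ1 and PSBQ2 are 76.9% to 87.0% identical, with no shared run above 35 bases. PSAD2 and PSBQ2 stand in entries joined with the neighbours AT1G03140 and AT4G05170, so their values include those genes. LHCB3, LHCB6, LHCA3 and PSAD1 lie in long stretches that also hold other entries, between 10 and 52 in all.

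The over-expressed genes were checked first. GDU1 stood at 5281 FPKM in Dex-GDU1 against 23.3 FPKM in 4c-S7 at 7 h, at 3362 against 6.52 FPKM at 25 h, and at 294 FPKM in gdu1-1D against 5.19 FPKM in Col wild type in the authors' deposited tables. GDU2, GDU5 and GDU6 were at 4706, 3198 and 30183 FPKM in their own lines, against 2.72, 2.86 and 9.14 FPKM in Col wild type in those tables. GDU4 itself was at 10.9 FPKM in libraries labelled 35S-GDU4 against 8.72 FPKM in Col wild type, which is no call (q = 0.949 in the authors' deposited table), so that line is described by its label only. Root markers summed to at most 0.0784 FPKM and flower markers to at most 3.69 FPKM in any group. The 3.69 FPKM was in 35S-GDU5, against 1.62 FPKM in Col wild type. Of 4 flower markers tested in 35S-GDU5, 2 were called higher and 1 lower, where 28.5% and 26.5% of all tested genes were.

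In Col wild type leaves, LHCB1.3 had the highest level, between 15649 and 17367 FPKM in the 4 tables that tested it. LHCB1.5 followed, at 9692 FPKM in the 35S-GDU5 table, with LHCB3 at 9681 FPKM. LHCB4.3 was lowest of all, at 163 FPKM there. LHCB3 joins LHCB1 and LHCB2 in the antenna trimers, and LHCB4.3 is a divergent form of the minor antenna protein that LHCB4.1 (4685 FPKM) and LHCB4.2 (2927 FPKM) also encode. LHCB5 (8846 FPKM) was the highest of the minor antenna. No test orders these levels, and neighbours such as LHCB1.5 and LHCB3 are not shown to differ.

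Within the other roles of the same Col wild type table, LHCA1 (8796 FPKM) was the highest and LHCA6 (249.6 FPKM) the lowest of the photosystem I antenna. LHCA5 and LHCA6, which link photosystem I to the chloroplast NDH complex, were both far below LHCA1 to LHCA4. Among photosystem I core subunits PSAO (7407 FPKM) was highest and PSAE2 (1052 FPKM) lowest, and in the oxygen-evolving complex PSBO1 (6441 FPKM) and PSBO2 (2298 FPKM) were the extremes. Of the other photosystem II subunits, PSBX (6246 FPKM) stood highest and PSBY (1986 FPKM) lowest. Together the 42 members held 23.1% of the summed FPKM of all tested genes of Col wild type.

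LHCB1.3 was not tested in Dex-GDU1 at 7 h, in Dex-GDU1 at 25 h or in gdu1-1D, where Cuffdiff gave the status HIDATA, used for stretches with too many fragments. Its listed values there, such as 12802 FPKM in Dex-GDU1 and 0 in 4c-S7 at 7 h, are not measurements of a change and are not used. The second LHCB1.1 and LHCB1.2 entries were called in none of the comparisons.

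At 7 h after spraying, the major antenna genes were higher in Dex-GDU1. Among all members 14 of 41 tested were called higher, where 8.76% of all tested genes were, and 2 were called lower, where 7.19% of all tested genes were (16% in either direction). The median log2 fold change of the members was 0.09, against -0.01 over all tested genes. Of the 8 tested major antenna genes 7 were called higher, with a median of 0.51. Of 63 other tested genes with a mean of at least 1000 FPKM, 9.52% were called higher, with a median of -0.04. The 41 tested members, without LHCB1.3, held 13.2% of the summed FPKM of tested genes in Dex-GDU1 and 11.9% in 4c-S7.

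**Figure D1:**
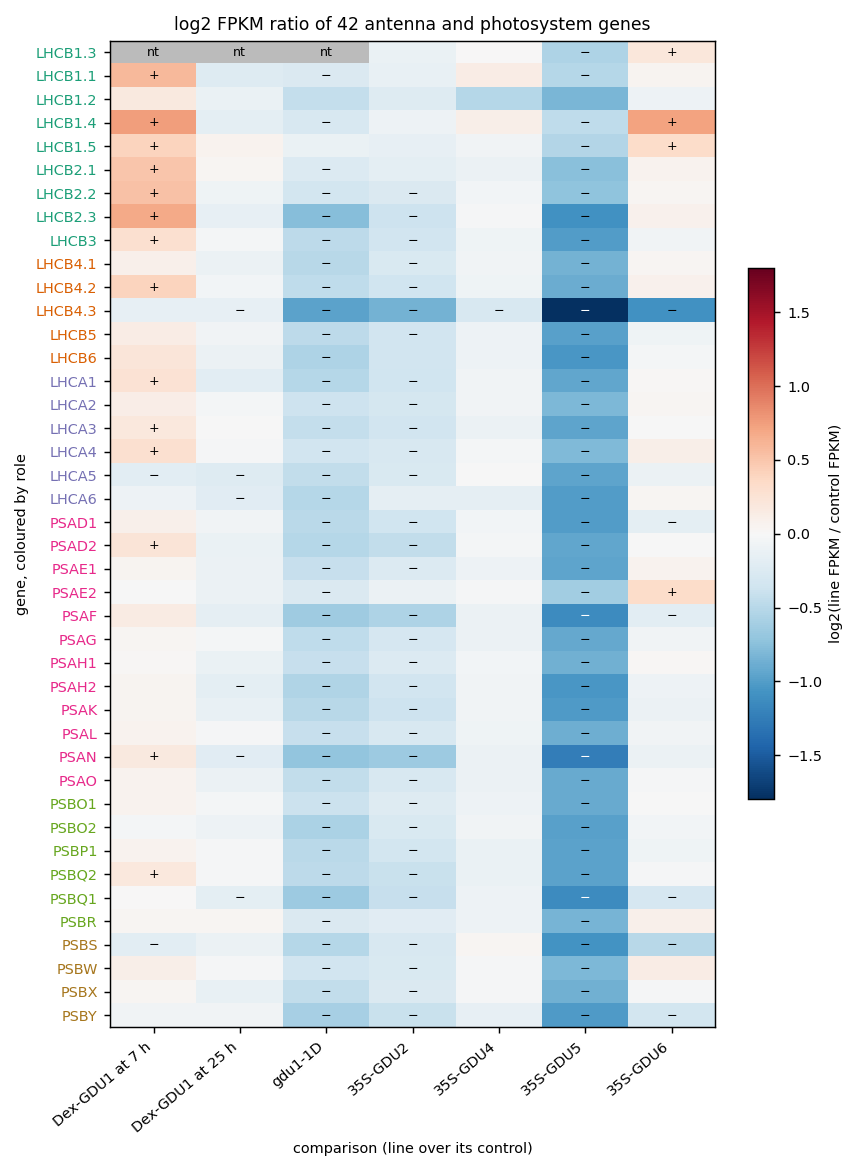
Log2 FPKM ratio of line over control for each of the 42 genes (rows, coloured by role) in the 7 comparisons (columns). Plus and minus signs mark genes called higher or lower at q below 0.05, and nt marks the 3 comparisons in which LHCB1.3 was not tested; the 35S-GDU5 column holds 41 minus signs.

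LHCB1.4 (AT2G34430), a major antenna gene, had 2039.8 FPKM in Dex-GDU1 and 1206 FPKM in 4c-S7 at 7 h, a log2 fold change of 0.76 with an SE of at most 0.19. LHCB2.3 (AT3G27690) had 166 FPKM in Dex-GDU1 and 104 FPKM in 4c-S7, a log2 fold change of 0.68 (SE at most 0.17). LHCB1.1 (AT1G29920) had 823 FPKM in Dex-GDU1 and 551 FPKM in 4c-S7, at 0.58 (SE at most 0.14). For all 3 genes the q-value in the authors' deposited table was 0.000725. LHCB2.2 followed at 0.53, with 621 FPKM in Dex-GDU1 and 431 FPKM in 4c-S7. LHCB2.1 (0.50), LHCB1.5 (0.41) and LHCB3 (0.28) were also higher, and LHCB1.2 was at 0.18 without being called (q = 0.776 in the authors' deposited table). So each of the 8 tested genes of the trimeric antenna had more FPKM in Dex-GDU1 than in 4c-S7.

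The other genes called higher at 7 h had increases no larger than that of LHCB1.5, and LHCB4.2 and LHCA4 stood above LHCB3. LHCB4.2 of the minor antenna was at 0.40, LHCA4, LHCA1 and LHCA3 of the photosystem I antenna at 0.29, 0.27 and 0.19, PSAD2 and PSAN of photosystem I at 0.23 and 0.17, and PSBQ2 of the oxygen-evolving complex at 0.19 on the log2 scale. The 2 genes called lower were LHCA5 (AT1G45474), with 193 FPKM in Dex-GDU1 and 221 FPKM in 4c-S7 (-0.20, SE 0.06), and PSBS (AT1G44575), with 1299 FPKM in Dex-GDU1 and 1474 FPKM in 4c-S7 (-0.18, SE 0.06). PSBS senses lumen acidification and triggers the dissipation of excess light energy. Most core genes were near 0: 10 of 12 photosystem I core subunits and 5 of 6 genes of the oxygen-evolving complex were not called.

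At 25 h no member was called higher in Dex-GDU1 by Cuffdiff, also at an unadjusted p below 0.05, where 24.5% of all tested genes were called higher. Lower calls were made for 6 of 41 tested members, where 21.6% of all tested genes were called lower (46.1% in either direction). The median of the members was -0.10, against a value close to 0 over all tested genes, and 38 of 41 had a negative value. The 8 tested major antenna genes lay between -0.23 and 0.06, all without a call.

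The genes called lower at 25 h were small in change. None was of the trimeric antenna, but LHCB1.1 (-0.23) and LHCB1.4 (-0.17) of that antenna had changes of similar size without a call. LHCA5 had 213 FPKM in Dex-GDU1 and 250.1 FPKM in 4c-S7, a log2 fold change of -0.23 (SE at most 0.06). LHCA6 had 163 FPKM in Dex-GDU1 and 188 FPKM in 4c-S7, at -0.21 (SE at most 0.05), and each had q = 0.00019 according to the authors' deposited table. PSAN (AT5G64040), a lumenal photosystem I subunit that helps plastocyanin dock, was at 3024 FPKM in Dex-GDU1 and 3486 FPKM in 4c-S7 (-0.20, SE 0.08). PSAH2, part of the docking site for mobile antenna, had 2509 FPKM in Dex-GDU1 and 2834 FPKM in 4c-S7 (-0.18, SE 0.07), and PSBQ1 (-0.18) and LHCB4.3 (-0.15) completed the set. PSAN was the 1 member called higher at 7 h and lower at 25 h.

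**Figure D2:**
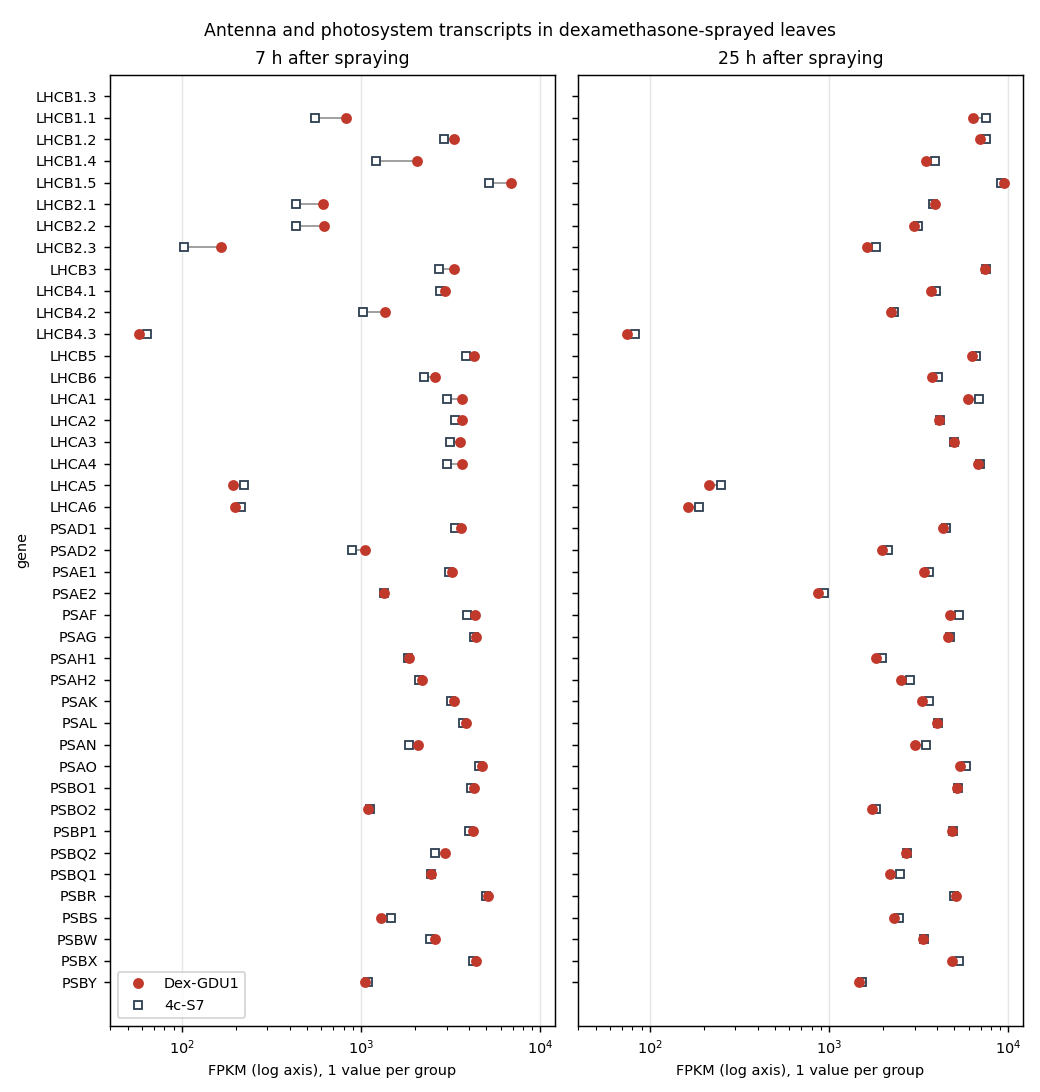
FPKM on a log axis, 1 value per group, of each gene in Dex-GDU1 (filled circles) and 4c-S7 (open squares) at 7 h and 25 h after spraying; LHCB1.3 was not tested and is left blank. At 7 h the circles of LHCB1.4, LHCB2.3, LHCB1.1, LHCB2.2 and LHCB2.1 lie to the right of their squares, and at 25 h they lie close to them.

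The levels themselves differed between the times. In 4c-S7, LHCB2.3 stood at 104 FPKM at 7 h and 1818 FPKM at 25 h, and LHCB1.1 at 551 and 7484 FPKM. The level at 25 h over that at 7 h was 17.6 for LHCB2.3, 13.6 for LHCB1.1, 8.74 for LHCB2.1 and 7.29 for LHCB2.2, against a median of 1.39 over the members and 0.851 over all entries above 1 FPKM in both. In Dex-GDU1 the same ratios were 9.88, 7.76, 6.35 and 4.78. The oxygen-evolving complex had the lowest median ratio of the 6 roles in 4c-S7, 1.14, with a range of 1.01 to 1.63. Samples at 7 h were taken 12 h after dawn and samples at 25 h 6 h after the next dawn. The tables were normalised separately, so these ratios carry no test. Time of day, time since spraying and the humidity dome of 7 h cannot be told apart.

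The fold changes of Dex-GDU1 were then compared between the times, since each time has its own libraries. The log2 fold change was lower at 25 h than at 7 h for 38 of 41 members, and 10 passed a test of the difference (normal test with Benjamini-Hochberg adjustment over 17113 genes), where 6.88% of all genes did in that direction (17.2% in either). No member passed in the other direction, where 10.4% of all genes did, and 14 members had an unadjusted p below 0.05. The median difference was -0.18 for members and -0.02 for all genes. LHCB1.4 differed by -0.93 (SE 0.21), LHCB2.3 by -0.83 (SE 0.18) and LHCB1.1 by -0.81 (SE 0.19). LHCB2.2, LHCB2.1, LHCB4.2, LHCA1, PSAN, PSAD2 and PSAF differed by between -0.61 and -0.31. When the SE was taken from the deposited test statistic, 2 members passed in place of 10.

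In gdu1-1D nearly every member was lower than in Col wild type. Of 41 tested members 39 were called lower, where 21.4% of all tested genes were, and none was called higher by Cuffdiff, also at an unadjusted p below 0.05, where 23.1% of all tested genes were (44.5% in either direction). The median was -0.45, or 73.0% of the Col wild type level, against a value close to 0 over all tested genes. The 41 tested members, without LHCB1.3, held 18.3% of the summed FPKM of tested genes in gdu1-1D and 21.9% in Col wild type. In the 35S comparisons, where LHCB1.3 was tested, the Col wild type share was 23.1%. In bulk leaf RNA, fewer cells of a type and less RNA per cell cannot be told apart.

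LHCB4.3 (AT2G40100) had 80.6 FPKM in gdu1-1D and 157 FPKM in Col wild type, a log2 fold change of -0.96 (SE at most 0.24). LHCB2.3 had 1471 FPKM in gdu1-1D and 2514 FPKM in Col wild type (-0.77, SE at most 0.19), and PSAN 2919 FPKM in gdu1-1D and 4784 FPKM in Col wild type (-0.71, SE at most 0.18). PSBQ1 (AT4G21280), an extrinsic subunit of the water-oxidising complex, had 1998 FPKM in gdu1-1D and 3157 FPKM in Col wild type (-0.66, SE at most 0.16). All 4 had q = 0.000209 in the authors' deposited table. The 2 genes not called were LHCB1.2 (-0.43) and LHCB1.5 (-0.12). Medians by role ran from -0.31 for the major antenna to -0.50 for the minor antenna, and every tested gene of the other 5 roles was called lower.

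The same libraries of Col wild type serve as control in the comparisons that follow, so the lines are given side by side and agreement between them is no separate support. In 35S-GDU2, 32 of 42 members were called lower, where 10.2% of all tested genes were, and none was called higher by Cuffdiff, also at an unadjusted p below 0.05, where 14.5% of all tested genes were (24.7% in either direction). The median was -0.28, with 20.2% of the summed FPKM in 35S-GDU2 and 23.1% in Col wild type. The 5 LHCB1 genes lay between -0.23 and -0.09, all without a call. LHCB4.3 had 84.1 FPKM in 35S-GDU2 and 152 FPKM in Col wild type (-0.85, SE at most 0.21). PSAN had 2944 FPKM in 35S-GDU2 and 4634 FPKM in Col wild type (-0.65, SE at most 0.16), a fall that exceeds the change of any other core subunit. PSAF (AT1G31330), which helps plastocyanin dock, was at 4456 FPKM in 35S-GDU2 and 6520.5 FPKM in Col wild type (-0.55), and PSAD2, on the ferredoxin side, at 1613 FPKM in 35S-GDU2 and 2189.7 FPKM in Col wild type (-0.44).

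In 35S-GDU5 the falls were largest. Of 42 members 41 were called lower, where 26.5% of all tested genes were, and none was called higher by Cuffdiff, also at an unadjusted p below 0.05, where 28.5% of all tested genes were (55% in either direction). The median was -0.93, or 52.3% of the Col wild type level, against 0.01 over all tested genes. The members held 16% of the summed FPKM in 35S-GDU5 and 23.1% in Col wild type. The gene not called was LHCB1.2, at 4399.6 FPKM in 35S-GDU5 and 7814 FPKM in Col wild type (-0.83, SE 0.60).

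LHCB4.3 had 47.1 FPKM in 35S-GDU5 and 163 FPKM in Col wild type, a log2 fold change of -1.79 (SE at most 0.44). PSAN had 2095 FPKM in 35S-GDU5 and 4957 FPKM in Col wild type (-1.24, SE at most 0.31). PSBQ1 was at 1489 FPKM in 35S-GDU5 and 3271 FPKM in Col wild type (-1.14), and PSAF at 3188 FPKM in 35S-GDU5 and 6979.5 FPKM in Col wild type (-1.13). These had q = 0.000145 in the authors' deposited table. The smallest falls were those of LHCB1.4 (-0.45), LHCB1.1 (-0.52), LHCB1.5 (-0.53) and LHCB1.3 (-0.55), and LHCB1.3 itself had 11843 FPKM in 35S-GDU5 and 17367 FPKM in Col wild type. The medians of the other 5 roles lay between -0.98 and -0.94, against -0.73 for the major antenna.

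**Figure D3:**
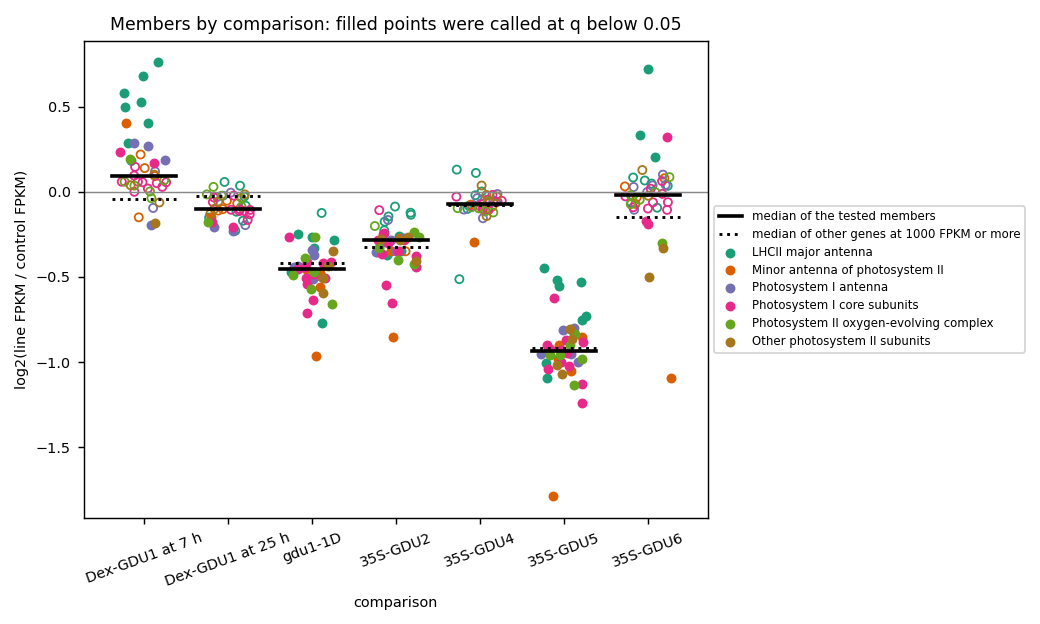
Log2 FPKM ratio of each tested member (points, coloured by role, filled where called) by comparison, with the median of the members (solid bars) and of other tested genes with a mean of at least 1000 FPKM (dotted bars). In 35S-GDU5 the medians are -0.93 for the members and -0.92 for the other abundant genes.

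Other abundant genes moved in the same way in these 3 lines. Of tested non-members with a mean of at least 1000 FPKM, 83.3% of 54 were called lower in 35S-GDU5, with a median of -0.92, 69.5% of 59 in gdu1-1D, with a median of -0.42, and 56.5% of 62 in 35S-GDU2, with a median of -0.32. In 35S-GDU6 the share was 44.1% of 59, with a median of -0.15. These groups of genes hold 7 or 8 genes of the pathway lists given below. The part that abundance has in the falls of the members was not tested.

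In 35S-GDU6 most members, 32 of 42, were not called. Of 42 members 4 were called higher, where 24.9% of all tested genes were, and 6 lower, where 23.9% of all tested genes were (48.8% in either direction), with a median of -0.02. Both shares, 9.52% and 14.3% of the members, lay below those of all tested genes. LHCB1.4 had 5818 FPKM in 35S-GDU6 and 3529 FPKM in Col wild type, a log2 fold change of 0.72 (SE at most 0.18). LHCB1.5 was at 10992 FPKM in 35S-GDU6 and 8733 FPKM in Col wild type (0.33), PSAE2 at 1187 FPKM in 35S-GDU6 and 949 FPKM in Col wild type (0.32), and LHCB1.3 at 18039 FPKM in 35S-GDU6 and 15649 FPKM in Col wild type (0.21, SE 0.07). Thus 3 of the 4 genes called higher belong to the LHCB1 group.

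The genes called lower in 35S-GDU6 were LHCB4.3, at 68.7 FPKM in 35S-GDU6 and 147 FPKM in Col wild type (-1.09, SE at most 0.27), and PSBS, at 1821 FPKM in 35S-GDU6 and 2575 FPKM in Col wild type (-0.50, SE at most 0.12). PSBY, a small photosystem II subunit, was at 1427 FPKM in 35S-GDU6 and 1791 FPKM in Col wild type (-0.33). PSBQ1 was at 2395 FPKM in 35S-GDU6 and 2952 FPKM in Col wild type (-0.30), PSAF at -0.19 and PSAD1 at -0.17. PSAE2, the lesser copy of the ferredoxin-side subunit PSAE, made up 22.6% of the PSAE pair in 35S-GDU6 and 19.6% in Col wild type. LHCB4.3 made up 1.57% of LHCB4.1 and LHCB4.3 together in 35S-GDU6 and 3.36% in Col wild type.

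**Figure D4:**
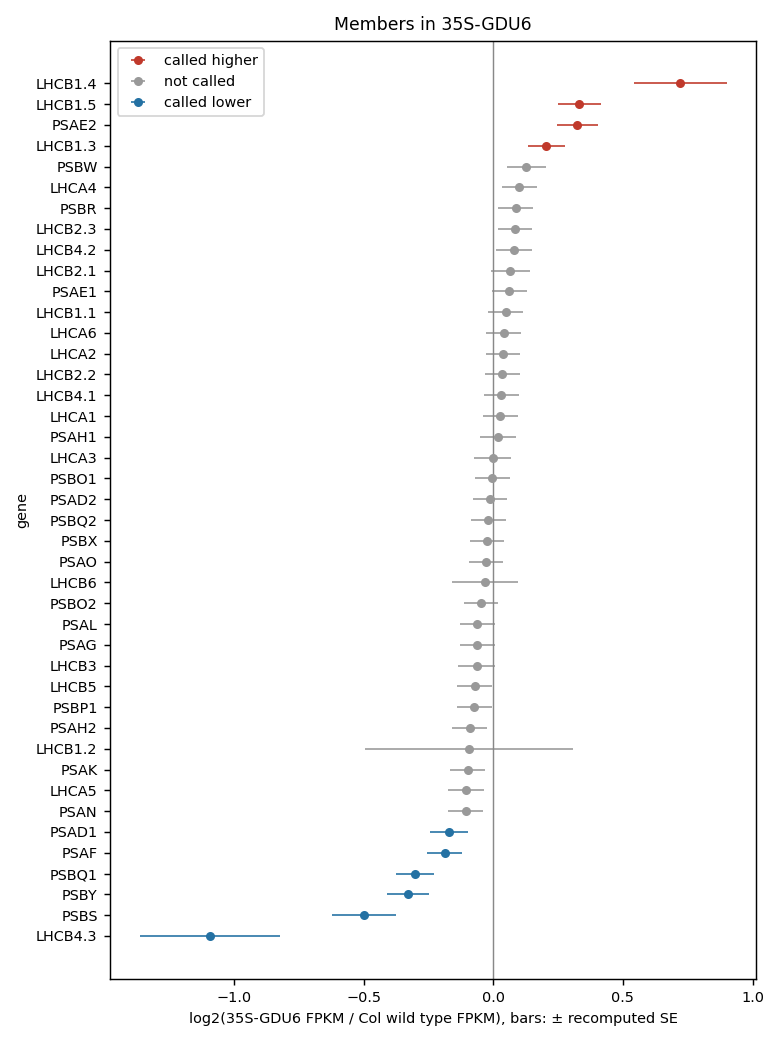
Log2 FPKM ratio of 35S-GDU6 over Col wild type for the 42 members, sorted, with bars of ± 1 recomputed SE and colours for called higher, not called and called lower. LHCB1.4 (0.72) and LHCB4.3 (-1.09) are the extremes.

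In the libraries labelled 35S-GDU4, 1 of 42 members was called lower, where 5.71% of all tested genes were, and none was called higher by Cuffdiff, also at an unadjusted p below 0.05, where 9.65% of all tested genes were (15.4% in either direction). That member was LHCB4.3, at 119.8 FPKM in the libraries labelled 35S-GDU4 and 147 FPKM in Col wild type (-0.29, SE at most 0.07). At an unadjusted p below 0.05, 3 members were lower. The other members lay between -0.51 and 0.13, with LHCB1.2 at the low end and an SE of 5.88 for it.

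Across the comparisons LHCB4.3 was called lower in 6 of 7, and at 7 h, where it was not called, it had 57.4 FPKM in Dex-GDU1 and 63.8 FPKM in 4c-S7 (-0.15, q = 0.0725 in the authors' deposited table). LHCA5, PSBQ1 and PSBS were each called lower in 5. Of the 7 comparisons, 5 share the same 2 Col wild type libraries as control, so calls in them are no separate support for each other. LHCB1.4 and LHCB1.5 were each called higher in 2, in Dex-GDU1 at 7 h and in 35S-GDU6. LHCB1.4 was also called lower in 2, gdu1-1D and 35S-GDU5, and LHCB1.5 in 1, 35S-GDU5. LHCB1.2 was called in none.

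Other genes of the pathway were taken from 6 lists with 58 genes in all. At 7 h, 6 of 16 chlorophyll synthesis genes were called higher and 3 lower in Dex-GDU1, with a median of -0.03. PORA, a protochlorophyllide reductase, was at 0.69 with only 2.49 FPKM in Dex-GDU1 and 1.54 FPKM in 4c-S7, HEMA1, the glutamyl-tRNA reductase that starts the pathway, at 0.57 with 41.9 FPKM in Dex-GDU1 and 28.2 FPKM in 4c-S7, and CHLH, a magnesium chelatase subunit, at 0.40. Of 10 regulators 3 were called higher, GLK2 (0.34), GLK1 (0.30) and SIG1 (0.29), the last a sigma factor of the chloroplast polymerase. In the electron transport list 1 of 10 genes, FD1, a ferredoxin, was called lower (-0.25), and of 4 import genes CPFTSY, the receptor of the antenna targeting particle, was called lower (-0.18). The 9 higher and 5 lower calls among 56 tested pathway genes at 7 h, 16.1% and 8.93%, all fell in these 4 lists, where 8.76% of all tested genes were called higher and 7.19% lower.

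At 25 h, 11 of 16 chlorophyll synthesis genes were called lower in Dex-GDU1 and all 16 had negative values, with a median of -0.26, led by DVR (-0.53), GSA2 (-0.52) and CHLI2 (-0.51). Chlorophyll breakdown genes were called higher in 5 of 8 cases, among them NYE2 (0.70, below 1 FPKM in both groups) and PAO, pheophorbide a oxygenase, with 52.4 FPKM in Dex-GDU1 and 35.4 FPKM in 4c-S7 (0.57). Of 10 photoprotection genes 6 were called higher, led by ELIP1 (0.56), an early light-induced protein. Regulators went both ways, with 3 of 10 called higher, 3 called lower and a median of -0.12. SIG5, a light- and stress-responsive sigma factor, had 50.4 FPKM in Dex-GDU1 and 18.1 FPKM in 4c-S7 (1.48), and HY5, a light-signalling factor, was at 0.86, while SIG2 (-0.37), GNC (-0.34) and SIG6 (-0.30) were the regulators called lower. FD2, the main leaf ferredoxin, was at -0.44, the largest of 4 falls among 10 electron transport genes, and 3 of 4 import genes were called lower. In all, 14 of 58 pathway genes were called higher (24.1%, against 24.5% of all tested genes) and 22 lower (37.9%, against 21.6%).

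In gdu1-1D all 16 chlorophyll synthesis genes were called lower, with a median of -0.53, together with 8 of 10 electron transport genes and all 4 import genes. PORA was at -0.90, DVR at -0.78 and FD2, with 2213 FPKM in gdu1-1D and 4304 FPKM in Col wild type, at -0.96. Chlorophyll breakdown genes went both ways, with 4 called higher, by up to 1.62, and 1 lower, HCAR (-0.92). So did regulators, with 3 higher and 5 lower, and photoprotection genes, with 1 higher and 4 lower. In all, 8 of 58 pathway genes were called higher (13.8%, against 23.1% of all tested genes) and 38 lower (65.5%, against 21.4%). In 35S-GDU2, 12 of 16 chlorophyll synthesis genes were called lower, CHLH at -0.51, and PORB was called higher (0.29). In all, 27 of 57 tested pathway genes were called lower in 35S-GDU2 (47.4%, against 10.2% of all tested genes) and 1 higher (1.75%, against 14.5%).

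In 35S-GDU5, 15 of 16 chlorophyll synthesis genes were called lower, with a median of -0.78, led by CHLH (-1.14), and 9 of 10 electron transport genes, led by FD2, with 1561 FPKM in 35S-GDU5 and 4461 FPKM in Col wild type (-1.52). Of the regulators 7 of 10 were called lower, with GNC, a GATA factor, at 11.4 FPKM in 35S-GDU5 and 34.5 FPKM in Col wild type (-1.60), and GLK1 at -1.06. All 4 import genes and 8 of 10 photoprotection genes were called lower. Chlorophyll breakdown genes went both ways, with 3 of 8 called higher, 2 called lower and a median of -0.11. NYE2, a paralogue of the chlorophyll-degrading protein NYE1, was called higher at 3.25 FPKM in 35S-GDU5 and 0.313 FPKM in Col wild type (3.38), and HCAR was called lower (-1.25). In all, 45 of 58 pathway genes were called lower in 35S-GDU5 (77.6%, against 26.5% of all tested genes) and 4 higher (6.90%, against 28.5%).

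In 35S-GDU6, 6 of 16 chlorophyll synthesis genes were called lower and 2 higher, with PORB, a protochlorophyllide reductase, at 833 FPKM in 35S-GDU6 and 438 FPKM in Col wild type (0.93). Photoprotection genes went both ways, with 3 of 10 called higher, 3 called lower and a median of -0.01. ELIP2 was at 0.998 FPKM in 35S-GDU6 and 4.83 FPKM in Col wild type (-2.28), and ELIP1 at -1.87, while VDE, the violaxanthin de-epoxidase, and TAP38, a phosphatase of the antenna, were each at 0.50. Of 10 regulators 6 were called lower, GNC at -1.04 and GLK1 at -0.65. In all, 22 of 57 tested pathway genes were called lower in 35S-GDU6 (38.6%, against 23.9% of all tested genes) and 9 higher (15.8%, against 24.9%). In the libraries labelled 35S-GDU4, 5 of 57 tested pathway genes were called lower (8.77%, against 5.71% of all tested genes). Of these 5, 4 were among the 10 regulators, with GNC at -0.65, and 1 was a photoprotection gene. Another 2 were called higher (3.51%, against 9.65%), PORB (0.42) and HEMA1 (0.25). These counts are small, and their shares were not tested against those of all genes.

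**Figure D5:**
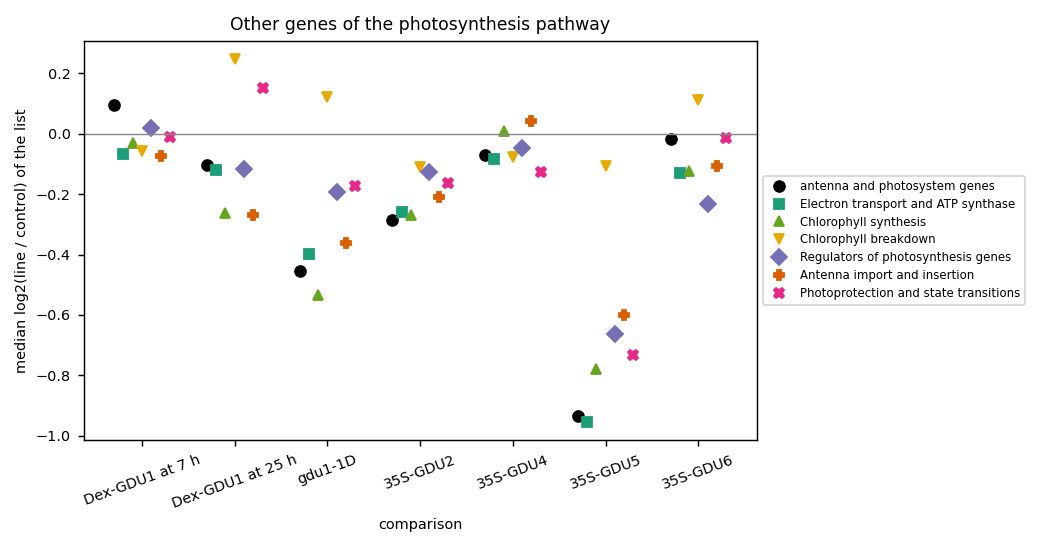
Median log2 FPKM ratio of line over control of the antenna and photosystem genes and of each of the 6 pathway lists, by comparison. In 35S-GDU5 the chlorophyll synthesis median is -0.78 and the electron transport median -0.95, beside -0.93 for the antenna and photosystem genes.

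Markers of leaf cell types moved as well. Guard cell markers, whose cells hold few chloroplasts, were called lower in 6 of 6 cases in 35S-GDU5, summed to 90.2 FPKM there and to 237 FPKM in Col wild type. They were called lower in 5 of 6 in 35S-GDU2 (110 FPKM summed, against 222 FPKM in Col wild type) and in 35S-GDU6 (136 against 214 FPKM), in 3 of 6 in gdu1-1D (155 against 229 FPKM), and in 4 of 6 in Dex-GDU1 at 25 h (75.8 against 155 FPKM in 4c-S7). In Dex-GDU1 at 7 h they summed to 144 FPKM, against 145 FPKM in 4c-S7, and in the libraries labelled 35S-GDU4 to 197 FPKM, against 215 FPKM in Col wild type, where 1 of 6 was called lower. Among all tested genes, 26.5% were called lower in 35S-GDU5, 10.2% in 35S-GDU2, 23.9% in 35S-GDU6 and 21.4% in gdu1-1D. The share was 21.6% in Dex-GDU1 at 25 h and 5.71% in the libraries labelled 35S-GDU4. GASA9 made up most of the guard cell sums in the control groups. Without it, the other 5 guard cell markers summed to 26.9 FPKM in 35S-GDU5 against 58.1 FPKM in Col wild type, but to 36.8 FPKM in Dex-GDU1 at 25 h against 44.7 FPKM in 4c-S7, where GASA9 itself was at 39.0 FPKM against 111 FPKM and FAMA at -0.03. Vascular markers summed to 377 FPKM in 35S-GDU5 and 500.1 FPKM in Col wild type, and 6 of 7 were called lower there, while SWEET12, a sucrose exporter, was called higher (1.43). Of 7 vascular markers, 4 were called lower and 2 higher in 35S-GDU6, 3 and 2 in 35S-GDU2, and 2 and 2 in gdu1-1D. The shares of all tested genes called higher there were 24.9%, 14.5% and 23.1%. Epidermis and trichome markers summed to 272 FPKM in 35S-GDU5 and 287 FPKM in Col wild type, and 2 of 4 tested were called lower in 35S-GDU5. The part of these differences in the falls of the antenna and photosystem transcripts was not tested. Of the leaf mesophyll check, RBCS1A, RBCS2B and RBCS3B, genes of the Rubisco small subunit, were not tested in any table for the same reason as LHCB1.3, and RBCS1B was at -1.88 in 35S-GDU5, with 907 FPKM in 35S-GDU5 and 3332 FPKM in Col wild type. RBCS1B was also called lower in gdu1-1D (-1.02), 35S-GDU6 (-1.02), 35S-GDU2 (-0.47) and Dex-GDU1 at 25 h (-0.37). RCA, Rubisco activase, was called lower in 35S-GDU5 (-1.11), 35S-GDU2 (-0.37) and 35S-GDU6 (-0.30), and was not tested in gdu1-1D or in Dex-GDU1 at 25 h. In 35S-GDU6 these 2 genes were thus lower while the median of the antenna and photosystem genes was -0.02.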

How the data were processed

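Per the submitters' processing notes, reads were processed with TopHat2, Cufflinks and Cuffdiff on TAIR10; versions, annotation, filters and strand setting are not given in the sources used here. Per the file headers, the authors' deposited tables hold 1 FPKM value per gene and group, with Cuffdiff's p-value and q-value. The deposited score, Cuffdiff's test statistic, was used by itself only for an alternative SE. The same Col libraries have differently scaled FPKM in different tables, so levels were not tested across tables. Depth per library is unknown.

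Log2 fold changes were recomputed as line over control, and the SE as the absolute log2 fold change over the normal quantile of p. Genes were matched by name and by position with RefSeq TAIR10.1, and of 2 entries of a gene the one with the higher mean FPKM was used. Identity between family members was computed on coding sequences, in place of the planned proteins. Python 3.11.15, pandas 2.3.3 and scipy 1.17.1 were used. Members, lists, tests and alternatives were chosen with earlier results of these data known. The rule for values given in full took the 4 called members with the largest change each way in a comparison, the members called most often, the extremes of each role and the members not tested, and up to 3 called genes per pathway list and 2 per marker list. The 35S-GDU1 and 35S-GDU3 libraries were not analysed here.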

Additional observations from a re-analysis of the deposited data

Results flagged for a closer look

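In 10 members the log2 fold change of Dex-GDU1 over 4c-S7 differed between 25 h and 7 h in a test of the difference itself (25 h minus 7 h). The differences were -0.93 for LHCB1.4, -0.83 for LHCB2.3, -0.81 for LHCB1.1, -0.61 for LHCB2.2, -0.46 for LHCB2.1, -0.46 for LHCB4.2, -0.46 for LHCA1, -0.38 for PSAN, -0.35 for PSAD2 and -0.31 for PSAF. All 10 are negative, where 6.88% of all genes passed in that direction. With the SE taken from the deposited test statistic, 2 members passed in place of 10, so most of these calls rest on the SE recomputed from the p-values. Time of day, time since spraying and the humidity dome of 7 h cannot be told apart here.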

How the results depend on the processing

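The alternatives were q or, between the times, adjusted p below 0.01, genes of at least 1 FPKM in both groups with adjustment over these, entries that join several genes left out, a pseudocount of 1 FPKM, centring on the median gene and, chosen after seeing the data, both entries of LHCB1.1 and LHCB1.2 counted. Counts of called members stayed within 1.5 times the reported ones except in 3 cases. At q below 0.01, 1 member was called lower in Dex-GDU1 at 7 h (2 reported) and 2 at 25 h (6 reported). With the SE from the deposited test statistic, 2 members passed the test for a lower change at 25 h than at 7 h (10 reported). The medians kept their direction. No paired analysis was possible because the tables hold 1 value per gene and group, and leaving out a library was not possible for the same reason. The cause of these 3 changes was not tested. Without values per library, neither the spread between libraries nor the weight of 1 library in a result could be examined, and the depth is unknown.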
